A study of Ovis aries with 6 samples.

Results

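Elastic fibres give the mitral leaflet its recoil. Each has a core of crosslinked elastin laid down on a scaffold of fibrillin microfibrils, and fibulins, latent TGF-beta binding proteins and lysyl oxidases bring the parts together. Fibrillin microfibrils also hold latent growth factors in the matrix, and the fibres lie mainly in the atrial layer of the leaflet, just under the endothelium. The genes described here are 9 parts of that system, chosen by symbol: the core protein ELN, the fibrillins FBN1 and FBN2, the microfibril-associated protein MFAP5, the fibulins FBLN1, FBLN5 and EFEMP1, the latent TGF-beta binding protein LTBP4 and the crosslinking enzyme LOXL1. All 9 have a row among the 18865 rows of the count table, and all 9 passed the filter on low counts that left 14326 genes for testing.

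The cells are sheep mitral valve endothelial cells (VECs), which line the leaflets, kept for 24 h with ovine plasma. In 3 libraries the plasma came from naive sheep and in 3 from sheep after myocardial infarction (post-MI), and no other difference between the groups is labelled. The labels give neither the plasma donors, the cell donors nor the cultures behind each library, so the p-values here reflect differences from library to library that may be technical. Levels are in CPM, the count of a gene scaled to the TMM-adjusted total over tested genes. A gene's CPM also grows with transcript length, so levels are compared between libraries and not between genes.

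Library totals ran from 14858472 to 20672794 counts. All 10 endothelial markers checked were detected in each library, with PECAM1 at 889 to 1407 CPM and CDH5 at 864 to 1384 CPM. Their levels were not uniform. CLDN5 was at 0.200 CPM in naive replicate 1, 3.53 and 4.42 CPM in the other naive and 5.14 to 20.2 CPM in post-MI libraries. VWF was at 6.58 to 17.8 CPM with naive and 15.4 to 49.8 CPM with post-MI plasma. By log2 fold change 8 of the 10 were positive and 2 negative, and 0 passed by edgeR. Naive replicate 1 was the lowest library for 3 of them and the highest for 2. Markers of fibroblasts and valve interstitial cells were also present: their summed level was 5776 to 14233 CPM with naive and 10139 to 12367 CPM with post-MI plasma, mostly from COL1A1 and COL3A1. Of the leukocyte markers, CD14 was at 22.6 to 41.4 CPM and CD68 at 6.87 to 13.0 CPM. PTPRC was lower, at 0.141 to 0.347 CPM with naive and 0.643 to 1.33 CPM with post-MI plasma (adjusted p = 0.443 by edgeR). Naive replicate 1 stood apart, as the lowest library for 29.2% and the highest for 28.8% of all genes tested, so the results for the 9 genes are given with and without it.

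None of the 9 genes passed the test of post-MI against naive libraries. In the quasi-likelihood test of edgeR 0 of 9 had an adjusted p under 0.05, where the share among all genes tested was 0%, and 0 of 9 had an unadjusted p under 0.05, where the share was 8.68%. The DESeq2 Wald test called 0 of 9 as well, where it called 1.51% of genes. Log2 fold changes, post-MI minus naive, were positive for 7 genes and negative for LTBP4 and MFAP5, and the median was 0.17 against -0.01 over all genes tested. Without naive replicate 1 the split was 5 positive and 4 negative, with a median of 0.08 against 0.00 over all genes. For 1 of 9, FBN1, the groups had no overlap in CPM, with each post-MI library higher. Among all genes tested 16.1% had no overlap, 8.32% higher and 7.82% lower. In RNA from whole cultures, fewer cells of a type and less RNA per cell cannot be told apart.

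**Figure D1:**
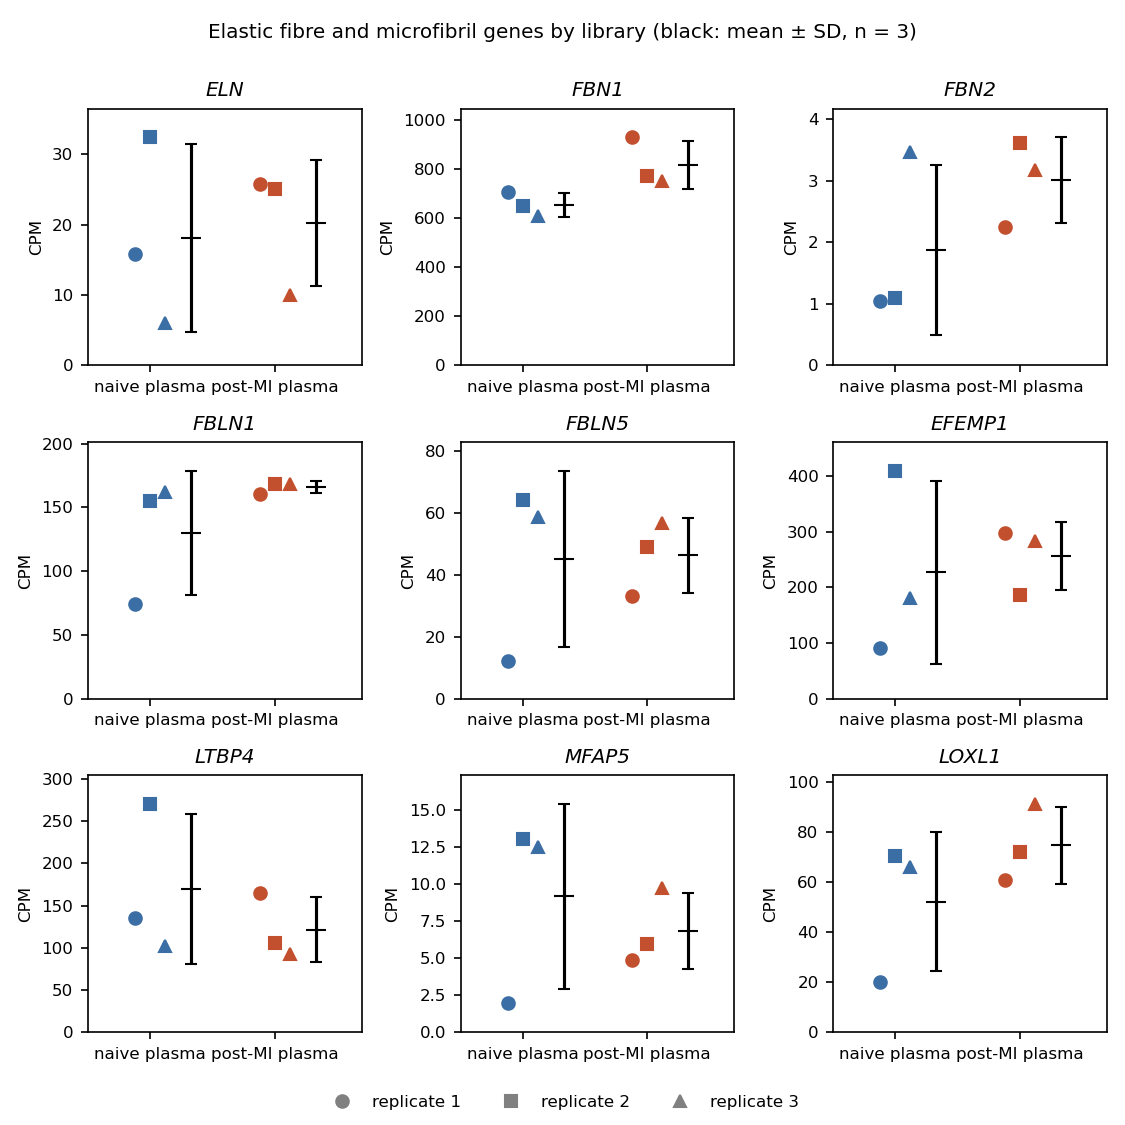
Level of each gene (CPM, linear axes from 0) in the 3 naive (blue) and 3 post-MI (orange) libraries, with the replicate number as the symbol and the mean ± SD in black. Only FBN1 has its groups apart, at 607 to 706 CPM and 753 to 931 CPM; replicate 1 is the lowest naive point for 6 genes.

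ELN encodes tropoelastin, the soluble monomer of the elastic core. It was at 15.8, 32.4 and 6.01 CPM in naive replicates 1, 2 and 3 and at 25.7, 25.1 and 9.93 CPM in post-MI replicates 1, 2 and 3. The groups overlapped, and the lowest and the highest of the 6 libraries were both naive. Replicate 3 was the lowest library in either group, with 128 counts in the naive and 172 counts in the post-MI library. Exact 95% Poisson intervals, which cover counting error only, were 5.02 to 7.15 CPM for naive replicate 3 and 29.8 to 35.2 CPM for naive replicate 2, so counting error alone does not span the difference between these 2 libraries. The log2 fold change was 0.17 ± 0.60 (SE; adjusted p = 0.945 by edgeR), a ratio of 1.12 with a 95% interval of 0.418 to 3.01. Without naive replicate 1 it was 0.10. Its sign turned without naive replicate 3 (-0.25), and it was 0.90 without naive replicate 2.

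FBN1 encodes the main fibrillin of adult microfibrils, and its mutation causes Marfan syndrome, in which the mitral valve often prolapses. Its level was 706, 649.5 and 607 CPM in the naive and 931, 772 and 753 CPM in the post-MI libraries. The lowest post-MI library lay above the highest naive one, and the means were 654 ± 49.4 and 818 ± 97.7 CPM (SD, n = 3 each). The log2 fold change was 0.32 ± 0.15 (SE; adjusted p = 0.570 by edgeR), a fold of 1.25 with a 95% interval of 0.971 to 1.61. FBN1 was also the steadiest of the 9 genes among naive libraries, with a coefficient of variation of 7.55% and a range of 0.22 on the log2 scale, and 85.3% of all genes tested had a range at least as wide. Leaving out single libraries moved the log2 fold change from 0.22, where post-MI replicate 1 was dropped, to 0.39, where naive replicate 1 was dropped. The fit at 0.39 had an unadjusted p of 0.0390 and an adjusted p of 0.596 by edgeR.

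FBN2 encodes a fibrillin made mostly during development, and its transcript was rare here. It had 21, 19 and 74 counts in the naive and 42, 53 and 55 counts in the post-MI libraries, or 1.05, 1.10 and 3.48 CPM and 2.25, 3.62 and 3.18 CPM. Naive replicates 1 and 2 were the lowest, and naive replicate 3 lay within the post-MI range. Naive replicate 1 had a Poisson 95% interval of 0.651 to 1.61 CPM and naive replicate 3 one of 2.73 to 4.37 CPM, so these naive libraries differed by more than counting error. FBN2 had the largest log2 fold change of the 9 genes, 0.67 ± 0.52 (SE; adjusted p = 0.687 by edgeR). Dropping naive replicate 1 gave 0.38. Dropping naive replicate 3 gave 1.48, with an unadjusted p of 0.00619 and an adjusted p of 0.440 by edgeR.

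The level of FBN2 relative to FBN1 sets the developmental against the adult fibrillin within each library. As log2 of the CPM ratio with 0.5 CPM added, it was -8.83, -8.67 and -7.26 in the naive and -8.40, -7.55 and -7.68 in the post-MI libraries. These values overlap, with means of -8.25 ± 0.87 and -7.88 ± 0.46 (SD, n = 3 each), and naive replicate 3 had the highest value of all. The difference between the means, 0.37, was 0.08 without naive replicate 1 and 0.87 without naive replicate 3, and with 0.1 CPM added in place of 0.5 CPM it was 0.53. These ratios are a description of FBN2 against FBN1 in each library, with no test.

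MFAP5 encodes a small glycoprotein (MAGP-2) that sits on fibrillin microfibrils. It was at 2.002, 13.0 and 12.5 CPM in the naive and at 4.88, 5.94 and 9.76 CPM in the post-MI libraries. The post-MI libraries lay between naive replicate 1, with 40 counts, and the other naive libraries, with 225 and 266 counts. The log2 fold change was -0.42 ± 0.64 (SE; adjusted p = 0.849 by edgeR). Without naive replicate 1 it was -0.89 ± 0.30 (SE), with an unadjusted p of 0.0207 and an edgeR adjusted p of 0.540, and without naive replicate 2 it was -0.08. MFAP5 had the widest range of the 9 genes among naive libraries, 2.64 on the log2 scale, and 2.51% of all genes tested had one at least as wide.

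Among the fibulins, FBLN5 tethers tropoelastin and LOXL1 to microfibrils and binds integrins on the cell. Its level was 12.4, 64.2 and 58.7 CPM in the naive and 33.1, 48.9 and 56.7 CPM in the post-MI libraries. As with MFAP5, all post-MI values fell between naive replicate 1 and the other naive libraries. FBLN5 and MFAP5 in fact ordered the 6 libraries identically: naive replicate 1, post-MI replicates 1, 2 and 3, then naive replicates 3 and 2. The FBLN5 log2 fold change was 0.04 ± 0.55 (SE; adjusted p = 0.989 by edgeR), and its sign turned without naive replicate 1 (-0.40 ± 0.22, SE; adjusted p = 0.685 by edgeR). The interval with all libraries, a fold of 0.418 to 2.51, leaves changes of more than 2-fold in either direction possible.

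FBLN1 encodes a fibulin of elastic fibres and basement membranes that binds fibronectin. It was at 74.1, 155 and 162 CPM in the naive and at 161, 169 and 168 CPM in the post-MI libraries. Naive replicate 1 had less than any other library, and the other 5 lay close together. The post-MI libraries had a coefficient of variation of 2.73%, the smallest of the 9 genes, and the 3 Poisson 95% intervals there overlapped (155 to 166, 162 to 175 and 162 to 175 CPM). The log2 fold change was 0.35 ± 0.29 (SE; adjusted p = 0.705 by edgeR), and 0.08 without naive replicate 1.

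EFEMP1, which encodes fibulin-3, a fibulin of thin elastic fibres and basement membrane zones, was at 90.7, 409 and 181 CPM in the naive and at 298, 186 and 284 CPM in the post-MI libraries. Naive replicate 2 was the highest and naive replicate 1 the lowest of the 6. The log2 fold change was 0.17 ± 0.50 (SE; adjusted p = 0.928 by edgeR). It turned to -0.20 without naive replicate 1, and the sign thus rested on that library. Without naive replicate 2 it was 0.91, with an unadjusted p of 0.0452 and an adjusted p of 0.440 by edgeR.

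LTBP4 encodes a latent TGF-beta binding protein that works with FBLN5 in placing elastin on microfibrils. Its level was 136, 270.0 and 102 CPM in the naive and 165, 106 and 92.8 CPM in the post-MI libraries. Naive replicate 2 was the highest and post-MI replicate 3 the lowest, and the other 4 lay between. Its log2 fold change of -0.48 ± 0.39 (SE; adjusted p = 0.704 by edgeR) was the most negative of the 9 genes. Dropping naive replicate 1 gave -0.60, dropping post-MI replicate 1 gave -0.77, and dropping naive replicate 2 turned the sign (0.030). Unlike the fibulins, LTBP4 in naive replicate 1 differed by only 0.01 on the log2 scale from its mean in the other 5 libraries.

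LOXL1 encodes the lysyl oxidase that crosslinks tropoelastin and is needed to maintain elastic fibres. It was at 20.1, 70.2 and 65.9 CPM in the naive and at 60.8, 71.9 and 91.1 CPM in the post-MI libraries. Naive replicate 1 was again the lowest, post-MI replicate 3 was the highest, and post-MI replicate 1 lay below the other naive libraries. The log2 fold change was 0.52 ± 0.44 (SE; adjusted p = 0.714 by edgeR), a fold of 1.43 with a 95% interval of 0.702 to 2.92, and it was 0.14 without naive replicate 1. The level of the enzyme's transcript relative to its substrate's, as log2 of the LOXL1 to ELN ratio with 0.5 CPM added, was 0.34, 1.10 and 3.35 in the naive and 1.22, 1.502 and 3.13 in the post-MI libraries. The highest ratios were in replicate 3 of either group, where ELN was lowest. The group means of this ratio were 1.60 ± 1.56 and 1.95 ± 1.03 (SD, n = 3 each) and their difference, 0.36, was -0.27 without naive replicate 1, with no test.

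**Figure D2:**
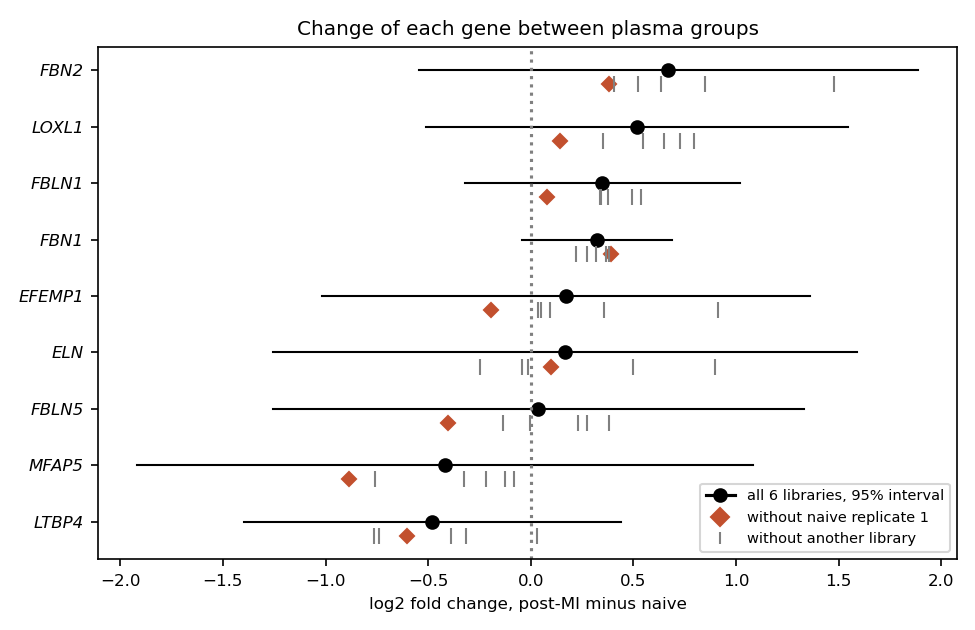
Log2 fold change of each gene, post-MI minus naive, with its 95% interval (black) from the fit of all 6 libraries, and the value with naive replicate 1 (orange diamonds) or another library (grey ticks) left out. Each interval includes 0, and FBN1 has the narrowest; without naive replicate 1 EFEMP1 and FBLN5 take negative values of -0.20 and -0.40.

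For 8 of the 9 genes the range over the naive libraries was larger than the difference between the groups, and FBN1 was the exception. The share of all genes for which this holds was not counted, so it is not shown to be particular to these genes. The median range over the 3 naive libraries was 1.80 on the log2 scale for the 9 genes and 0.52 for all genes tested. Over the 3 post-MI libraries it was 0.68 for the 9 genes and 0.37 for all genes. Naive replicate 1 was the lowest of the 6 libraries for 6 of the 9 genes (FBN2, FBLN1, FBLN5, EFEMP1, MFAP5 and LOXL1) and the highest for 0. It was also the lowest for 29.2% of all genes tested and for 6 of 9 tested fibroblast markers. The same held for 19 of 32 assembly partners, 6 of 12 elastin-degrading enzymes and inhibitors, and 6 of 13 receptors. FBN2 was nearly level in naive replicates 1 and 2, at 1.05 and 1.10 CPM. Their Poisson intervals overlapped (0.651 to 1.61 and 0.662 to 1.72 CPM). On the log2 scale the difference of naive replicate 1 from the mean of the other 5 libraries was -2.04 for MFAP5, -2.04 for FBLN5, -1.82 for LOXL1 and -1.51 for EFEMP1. ELN, FBN1 and LTBP4 did not share this: there the same difference was -0.07, -0.06 and 0.01. The 9 genes thus did not vary together across libraries. These comparisons of libraries are descriptions of 1 library against the others and carry no test.

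Marker sums of other cell types were also lowest or highest in naive replicate 1. The summed level of the 10 fibroblast and valve interstitial cell markers was 5776 CPM there and 10139 to 14233 CPM in the other 5 libraries, and 6 of 9 tested markers were lowest there. THY1, a surface marker of fibroblasts, was at 2.15 CPM there and at 25.1 to 45.7 CPM elsewhere, and OGN, a small proteoglycan, had no count there, which allows up to 0.150 CPM. The receptor PDGFRA went the other way, at 58.6 CPM there and 24.7 to 32.0 CPM elsewhere, and was the 1 tested marker of this list that was highest there. The smooth muscle sum (7 listed, 6 with a row) was low there, at 61.2 CPM, but nearly as low in naive replicate 3, at 71.8 CPM. Naive replicate 2 and the post-MI libraries ranged from 188.9 to 269.7 CPM. Of the 5 tested smooth muscle markers 3 were lowest in naive replicate 1. CNN1 and ACTG2 were lower in naive replicate 3 (8.46 against 19.4 CPM and 0.517 against 12.1 CPM). In naive replicate 1 the leukocyte sum (8 listed, 7 with a row) was 59.3 CPM, against 35.6 to 42.4 CPM in the other 5 libraries. The endothelial sum, 3277 CPM, lay within the range of the other libraries, 2651 to 4045 CPM. The part of these markers in the levels of elastic fibre genes was not tested.

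**Figure D3:**
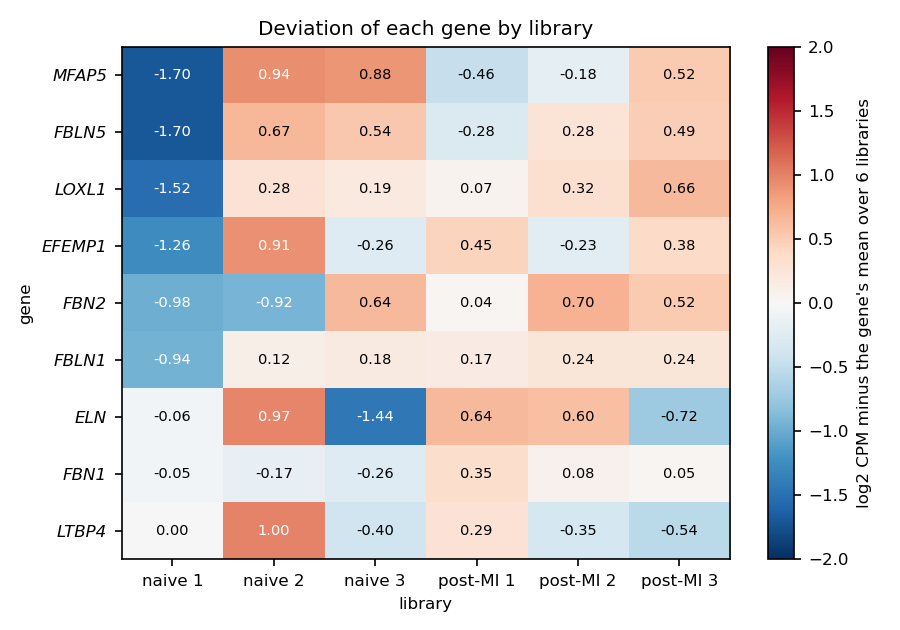
Log2 CPM of each gene minus its mean over the 6 libraries (colour and printed value), with genes ordered by how far naive replicate 1 lies below the others. The first column is blue for MFAP5 to FBLN1, from -1.70 to -0.94, and near 0 for ELN, FBN1 and LTBP4, while ELN is lowest in naive replicate 3 (-1.44).

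For each gene, the pair of other genes with the most similar profile was taken by Pearson's r of log2 CPM over the 6 libraries, among 10753 genes. With 6 libraries high values are common, and for FBLN1, whose profile is set by naive replicate 1, 364 genes reached 0.95. FBN1 was most like G2E3 and KIF18A (r of 0.9995 and 0.995), and ELN was most like TBCCD1 and RPL18 (0.984 and 0.980). MFAP5 was most like ATP2C1 and the microfibrillar collagen gene COL6A1 (0.998 and 0.994), and FBLN5 was most like TTC3 and KCTD2 (0.998 each). LOXL1 was most like CD81 and SERINC5 (0.999 and 0.998), and EFEMP1 was most like BCKDHA and SSSCA1 (0.995 and 0.992). FBLN1 was most like MMRN2, an endothelial matrix protein of the emilin family, and AFAP1L2 (0.998 and 0.997), which fell to 0.778 and 0.890 without naive replicate 1. For FBN2 these were ARL2BP and GLUL (0.992 and 0.984), and for LTBP4, which had the fewest close profiles, with 3 genes at 0.95 or above, ETFA and TMCO4 (0.970 and 0.958).

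The wider pathway was read from 3 fixed lists. Of 34 partners and assembly factors of elastic fibres and microfibrils, 32 were tested (DCN is also among the fibroblast markers), with 19 positive and 13 negative log2 fold changes and a median of 0.08. By edgeR 0 passed in either direction over all genes, and 4 of 32 had an unadjusted p under 0.05, where the share over all genes was 8.68%. Groups did not overlap for 5 of 32, near the 16.1% of all genes: 3 were higher (HSPG2, MMRN2 and SVEP1) and 2 lower (LOXL2 and VCAN). MMRN2 and SVEP1 were named after their values were seen. EMILIN3 had no count in any library, which allows a level of up to 0.141 CPM in the deepest and 0.205 CPM in the shallowest, and FBN3, the third fibrillin gene, had a count in naive replicate 2 alone.

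LOXL2, a lysyl oxidase that crosslinks basement membrane collagen, was at 1149, 1224 and 972 CPM in the naive and at 613, 732 and 892 CPM in the post-MI libraries. All post-MI libraries lay below all naive ones, and the log2 fold change of -0.58 ± 0.19 (SE; adjusted p = 0.545 by edgeR) was -0.55 without naive replicate 1. This differed in sign from that of LOXL1, which was 0.14 without naive replicate 1. LOX itself, the main elastin crosslinker, was at 79.5 ± 17.4 and 72.4 ± 12.5 CPM (SD, n = 3 each). The log2 fold change of LOX was -0.13 ± 0.21 (SE), with an adjusted p of 0.854 by edgeR. A further relative, LOXL4, was at 2.19 CPM or less in each library, and its log2 fold change was 1.53 ± 0.57 (SE; adjusted p = 0.561 by edgeR).

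HSPG2, or perlecan, to which fibrillin microfibrils attach at basement membranes, was at 1309, 3461 and 2940.3 CPM in the naive and at 5420.0, 5394 and 4093 CPM in the post-MI libraries. Its log2 fold change was 0.95 ± 0.36 (SE; adjusted p = 0.566 by edgeR) and 0.65 without naive replicate 1. VCAN, the proteoglycan versican that binds fibrillin, was at 1547, 684 and 654 CPM in the naive and at 613, 394 and 477 CPM in the post-MI libraries. Its difference was -0.96 ± 0.37 on the log2 scale (SE; adjusted p = 0.566 by edgeR), and -0.42 without naive replicate 1. HSPG2 and VCAN thus lay on opposite sides of the naive libraries, and neither passed the test. EMILIN1, a glycoprotein at the surface of elastin, gave 0.48 ± 0.21, the proteoglycan BGN 0.30 ± 0.20, MFAP1 -0.24 ± 0.14 and ADAMTS6 -0.38 ± 0.25 (SE). MFAP1 is on the list by its name, and whether it acts in the matrix was not tested. Dropping naive replicate 1 gave 0.17 for BGN and -0.10 for ADAMTS6. Dropping post-MI replicate 1 gave -0.15 for MFAP1 and -0.59 for ADAMTS6, and dropping naive replicate 2 gave 0.47 for BGN.

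LTBP1, the relative of LTBP4 that binds latent TGF-beta to microfibrils, was named after its values were seen, since its profile resembled that of FBLN1. Its log2 fold change was 0.61 ± 0.64 (SE), with an adjusted p of 0.771 by edgeR. It was at 292, 1744 and 2381 CPM in the naive and at 2117, 2551 and 2058 CPM in the post-MI libraries. As for FBLN1, only naive replicate 1 lay apart.

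Among 20 elastin-degrading enzymes and inhibitors 12 were tested, with 6 positive and 6 negative log2 fold changes, a median of 0.00 and 0 calls by edgeR in either direction. Groups did not overlap for 1 of 12, against 16.1% of all genes. This was TIMP1, an inhibitor of matrix metalloproteinases, at 1591, 1039.7 and 1010.1 CPM in the naive and 526, 612 and 945 CPM in the post-MI libraries (log2 fold change -0.81 ± 0.29, SE; adjusted p = 0.560 by edgeR; -0.55 without naive replicate 1). The cathepsins CTSK and CTSB gave -0.50 ± 0.30 and -0.50 ± 0.34, and the membrane metalloproteinase MMP14 gave -0.41 ± 0.27 (SE), or -0.09 without naive replicate 1 and -0.62 without naive replicate 2. Dropping naive replicate 2 gave -0.80 for either cathepsin, and dropping naive replicate 3 gave -0.26 for CTSK and -0.22 for CTSB. The macrophage elastase MMP12 and neutrophil elastase ELANE were below the count filter, with MMP12 at 0.273 CPM or less in each library.

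Of 14 receptors for elastin and fibrillin 13 were tested, with 7 positive and 6 negative log2 fold changes, a median of 0.08 and 0 calls by edgeR in either direction. The groups did not overlap for 2 of 13, near the 16.1% of all genes. These were ITGB1 and ITGA8, integrin subunits that pair to bind matrix proteins, and both were higher in the post-MI libraries. ITGB1 was at 1229, 2107 and 1911 CPM in the naive and at 2317, 2136 and 2572 CPM in the post-MI libraries (log2 fold change 0.42 ± 0.23, SE; adjusted p = 0.599 by edgeR; 0.23 without naive replicate 1). ITGA8 was at 1.15, 22.1 and 10.5 CPM in the naive and at 22.5, 26.1 and 28.6 CPM in the post-MI libraries (1.20 ± 0.79, SE; adjusted p = 0.642 by edgeR), and it gave 0.67 with naive replicate 1 dropped and 2.14 with naive replicate 2 dropped. The galectin LGALS3 gave -1.26 ± 0.42 and the syndecan SDC4 -1.10 ± 0.44 (SE), or -0.98 and -0.45 without naive replicate 1.

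**Figure D4:**
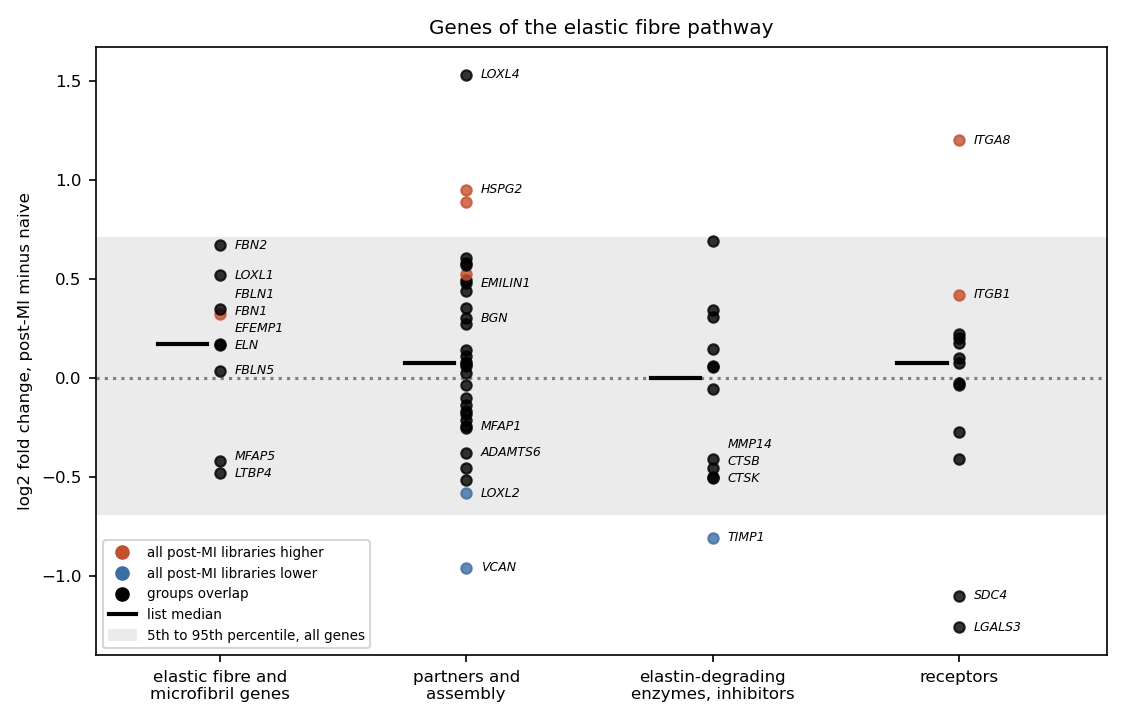
Log2 fold change (post-MI minus naive) of each tested gene in the 9 elastic fibre and microfibril genes and in 3 lists of the wider pathway, with list medians (bars) and the 5th to 95th percentile of all genes tested (grey, -0.69 to 0.71). All 9 genes lie inside the grey band, and the list medians lie between 0.00 and 0.17.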

How the data were processed

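RNA from 3 naive and 3 post-MI libraries was analysed, with groups and replicate numbers from the sample titles. The submitters' processing notes list featureCounts 2.0.0, STAR 2.5.2b, DESeq2 1.26.0, SAMtools 1.9 and the build Oar_v3.1. Annotation and strand setting: not given in the sources used here. Raw counts by gene symbol are the main data, the authors' own, deposited as 1 table. A deposited signal file per sample was checked against that table: 100% of its non-zero values equal the counts divided by 1 constant, to within 0.01%. It was used for nothing else.

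Counts were analysed in R 4.3.3 with edgeR 4.0.16: filterByExpr with defaults, TMM, the quasi-likelihood test and Benjamini-Hochberg adjustment over all 14326 genes at 0.05. The SE was taken as the size of the log2 fold change divided by the square root of F, and 95% intervals use it with the fit's t quantile. Alternatives were DESeq2 1.42.0, limma-voom (limma 3.58.1), other scalings and filters, a replicate block and each library left out. The tests were also tried on simulated data with known changes. There edgeR recovered 8% of 2-fold and 82% of 4-fold changes, limma-voom 12% and 83%, and DESeq2 54% and 91%. False calls made up 8.16% of the calls by edgeR, 5.94% by limma-voom and 28.6% by DESeq2. A 2-fold change was thus mostly missed by edgeR in the simulation. Its changed genes were drawn at random from all genes tested. Counts were drawn independently for each gene, so no simulated library deviated in many genes at once. The rates are thus not those of the 9 genes, whose median naive range was 1.80 on the log2 scale against 0.52 for all genes tested. A floor of 3 counts was read behind a 0. From the lists, genes with the smallest p were named (8, 4 and 4). The genes and lists were chosen with earlier results of these data known. In the RefSeq table of ARS-UI_Ramb_v3.0, used for neighbours alone, 8 of the 9 genes overlap no other gene and FBLN1 overlaps a transfer RNA gene. Its build differs, so no coordinates are given.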

Additional observations from a re-analysis of the deposited data

How the results depend on the processing

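The count of calls over all genes was 0 by edgeR and limma-voom and 221 by the DESeq2 Wald test. In each of the 13 alternatives 0 of the 9 genes and 0 genes of the other lists were called. By edgeR without naive replicate 1, 2 of the 9 had an unadjusted p under 0.05 (FBN1 and MFAP5), as had 1169 of 14431 genes. Without naive replicate 2 this held for EFEMP1 and 1629 of 14450 genes, and without naive replicate 3 for FBN2 and 1477 of 14423 genes. By DESeq2 it held for FBN1 (unadjusted p = 0.0496, adjusted p = 0.510) and 1449 genes over the table. Signs turned for ELN without naive replicate 3 (-0.25), post-MI replicate 1 (-0.04) or post-MI replicate 2 (-0.01), for FBLN5 without naive replicate 1 (-0.40), post-MI replicate 2 (-0.01) or post-MI replicate 3 (-0.14), for EFEMP1 without naive replicate 1 (-0.20) and for LTBP4 without naive replicate 2 (0.030). With single libraries left out ELN ran from -0.25 to 0.90, FBLN5 from -0.40 to 0.38, EFEMP1 from -0.20 to 0.91 and LTBP4 from -0.77 to 0.030; the cause was not tested. The log2 fold changes of FBN1, FBN2, FBLN1, LOXL1, MFAP5 and the 16 named genes of the lists kept their sign in every alternative that tested them. LOXL4 was not tested with the filter of 1 CPM in 3 libraries. Scaling by plain library totals or DESeq2 size factors moved the median of all genes to -0.04 and -0.01, and turned no sign. The sign of the LOXL1 to ELN difference turned without naive replicate 1 (-0.27) or post-MI replicate 3 (-0.24).

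Replicate numbers were not shown to pair the libraries: same-numbered libraries had correlations of their deviations of 0.15, -0.11 and 0.09, and not each library correlated best with its own number. With the replicate block 0 genes were called over all genes, 0 of the 9 and 0 of the other lists, and FBN1 gave 0.32, ELN 0.35 and LOXL1 0.69. With 3 libraries a group and naive ranges this wide, the intervals of 8 of the 9 genes include changes of 2-fold or more. Depth limits FBN2 most, with 19 to 74 counts per library.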
